A study of Homo sapiens with 24 samples.

Results

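T98G and U251MG, a pair of established glioblastoma cell lines, were compared for how the expression of each gene differed between cells transduced with WWOX and their controls. The quantity followed is the difference of differences, that is, the log2FC of “WWOX” versus “Vec” in T98G minus the same log2FC in U251MG. Genes on autosomes with at least 5 CPM in at least 1 of the 12 libraries of both lines were taken, which gave 10918 of the 43037 genes in the deposited values, in 12 of the 24 libraries of the series. Cap analysis gene expression (CAGE-Seq), which counts the 5′ ends of capped RNA, was performed on bulk RNA. The “WWOX” variants were stably transduced with a lentivirus carrying WWOX, and the “Vec” variants with the control system. Both carried the puromycin resistance of the vector and were kept under the same selection, each line in its own medium (MEM for T98G, EMEM for U251MG). Each of the 4 groups held 3 libraries. These are described as biological replicates. A stably transduced population is 1 derivation of its line, so selection during its making and the effect of WWOX cannot be told apart. The difference between the lines rests on 1 derivation of each variant in each line.

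WWOX encodes a WW domain-containing oxidoreductase located at a common fragile site. Its WW domains bind proline-rich motifs of partner proteins, among them transcription factors and signalling proteins, and it is regarded as a tumor suppressor that is often lost or reduced in glioblastoma. Because its partners include transcriptional regulators, the genes that respond to it may depend on which partners a cell expresses. T98G and U251MG are both of glioblastoma origin, but they differ in the glial genes they express.

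Depth ran from 10756072 to 15960454 tags per library (median 14103645). Where a gene had 0 tags, up to 3 could have been missed, or 0.188 to 0.279 CPM by library, for counting error alone. Among markers of the labelled origin, CD44 was between 1230 and 2090 CPM in T98G and between 874 and 1930 in U251MG, whereas SOX2 did not pass 0.562 CPM and S100B did not pass 1.02 CPM in any T98G library, against at least 31.0 and 31.8 CPM in U251MG. GFAP was between 1.62 and 11.6 CPM in T98G and between 114 and 3230 in U251MG, and NES, FABP7, and SLC1A3 were also lower in T98G. Not all glial markers went this way. SOX9 was between 45.1 and 77.8 CPM in T98G and between 44.9 and 430 in U251MG. OLIG2 was low but higher in T98G, between 0.984 and 3.57 CPM against at most 0.286 in U251MG. The immune marker genes PTPRC, CD68, and CD14 did not pass 0.137 CPM in any library. Some libraries stood apart from their groups before any comparison. The “Vec” library 2 of T98G correlated less with the other “Vec” libraries (r between 0.925 and 0.948 across genes) than with the “WWOX” library 2 (0.977). The “WWOX” libraries 1 and 2 of U251MG correlated at 0.847 with each other, and each of the 3 “WWOX” libraries of U251MG was closer to a “Vec” library (0.922, 0.955, and 0.968) than to its own group (at most 0.912). The deviations of libraries from their group means moved with the GC content of the transcripts, with a Spearman correlation across genes of -0.623 for T98G “Vec” 2, -0.56 for U251MG “WWOX” 1, and 0.677 for U251MG “WWOX” 2. They also did in other libraries, at 0.698 for T98G “Vec” 3 and 0.514 for T98G “WWOX” 1. Across genes, the log2FC of “WWOX” versus “Vec” correlated with GC content at -0.227 in T98G and 0.013 in U251MG (Spearman). The difference between the lines correlated with it at -0.159. The part of GC content in the results was not tested beyond a correction of each library for it.

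WWOX itself, on chromosome 16 (78099400 to 79212667, hg38), was measured first. In T98G its scaled CPM (CPM divided by a scaling factor of the library) were 39.7, 53.4, and 40.1 in “Vec” and 49.8, 66.3, and 61.9 in “WWOX”. In U251MG they were 30.5, 33.2, and 30.4 in “Vec” and 46.7, 22.3, and 30.4 in “WWOX”. The groups overlapped in both lines, with log2FC of 0.42 ± 0.22 (SE) in T98G and 0.02 ± 0.22 in U251MG. Each SE rests on 1 spread per gene estimated from all 24 libraries, so it was equal in both lines and does not measure the spread of either. The difference between the lines was 0.40 ± 0.30, which was smaller than the spread between the libraries allowed to tell from 0 (limma adjusted p = 0.590, two-sided exact permutation p = 0.275 over 400 arrangements of the labels within lines). A transcript that starts within the vector need not be counted at the gene, so these counts do not check the labels, and the study verified the transduction on protein.

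The first question was how many genes responded differently, and in which direction. The WWOX effect differed between T98G and U251MG for 89 of 10918 genes, 0.815% of those tested (limma, Benjamini-Hochberg adjusted p under 0.05). It was higher in T98G for 43 genes (0.394%) and lower for 46 (0.421%). In 76 of these (0.696% of genes tested) the log2FC had opposite signs, up in T98G and down in U251MG in 37, and down in T98G and up in U251MG in 39. Over all tested genes, 54.6% had log2FC of opposite sign, 26.8% up in T98G and down in U251MG and 27.8% the reverse. The 89 genes were chosen by the size of their difference, which favours opposite signs. Their share therefore cannot be read against that of all genes. The groups did not overlap in either line, in opposite directions, for 29 of the 76 (0.266% of genes tested), 15 higher and 14 lower in T98G. Over all tested genes, whatever their p, 1.14% had no overlap in both lines in opposite directions and 0.577% in the same direction. In 4 of the 76 genes, both groups of a line were at 3 tags or fewer in every library, so the sign in that line has no meaning. Tested one line at a time, 89 genes changed in T98G (0.815%), 35 up and 54 down, and 22 changed in U251MG (0.202%), 7 up and 15 down. Of the 89 genes with a difference, 39 changed past the threshold in T98G, 13 in U251MG, and 38 in neither. A single gene, CECR2, changed past the threshold in both lines, in opposite directions. The median GC content of the transcripts was 47.6% for the 43 genes higher in T98G, 52.1% for the 46 lower, and 48.0% over all tested genes. Since the RNA is from bulk cultures, fewer cells of a state and less RNA per cell cannot be told apart in any of these values.

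**Figure D1:**
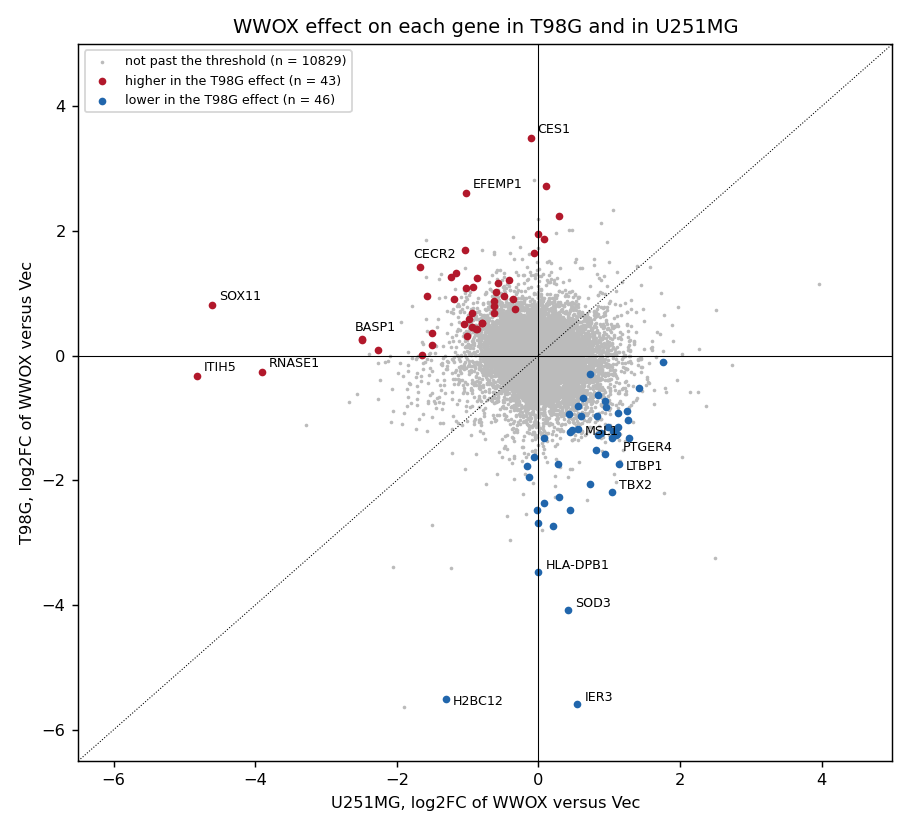
The log2FC of “WWOX” versus “Vec” of each of the 10918 tested genes is plotted for U251MG (x axis) and T98G (y axis), with genes whose difference passed the threshold in red (43 higher in T98G) and blue (46 lower) and a dotted line of equal effects. Colored points lie mostly to the upper left and lower right, where the signs are opposite (76 of 89). Choosing genes by their difference favours this pattern. IER3, SOD3, SOX11, and ITIH5 lie farthest from the line.

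The size of the count depended strongly on the libraries and on the source of the spread. With the 12 libraries modelled alone, without the spread of the U87MG and DBTRG-05MG libraries, 7 genes passed. The spread within groups (root mean square) was 0.535 on the log2 scale in T98G and U251MG and 0.379 in the other lines. It was largest in U251MG “WWOX”, at 0.751. The SE and adjusted p of the model as reported use the spread of all 24 libraries together. The median SE of a difference was 0.453 in that model and 0.513 with the 12 libraries alone. Leaving out 1 library gave between 27 (without T98G “Vec” 1) and 382 genes (without U251MG “WWOX” 2). Without T98G “Vec” 2 and U251MG “WWOX” 2, a pair chosen after seeing the data, there were 559 genes, 85 of them among the 89. U251MG “WWOX” 1, which also stood apart, was kept there. The sign of the difference was kept by every tested gene of the 89 in each setting shown in the plot of genes by setting. These genes were chosen for large differences in the same libraries, which favours kept signs, so this adds little evidence.

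**Figure D2:**
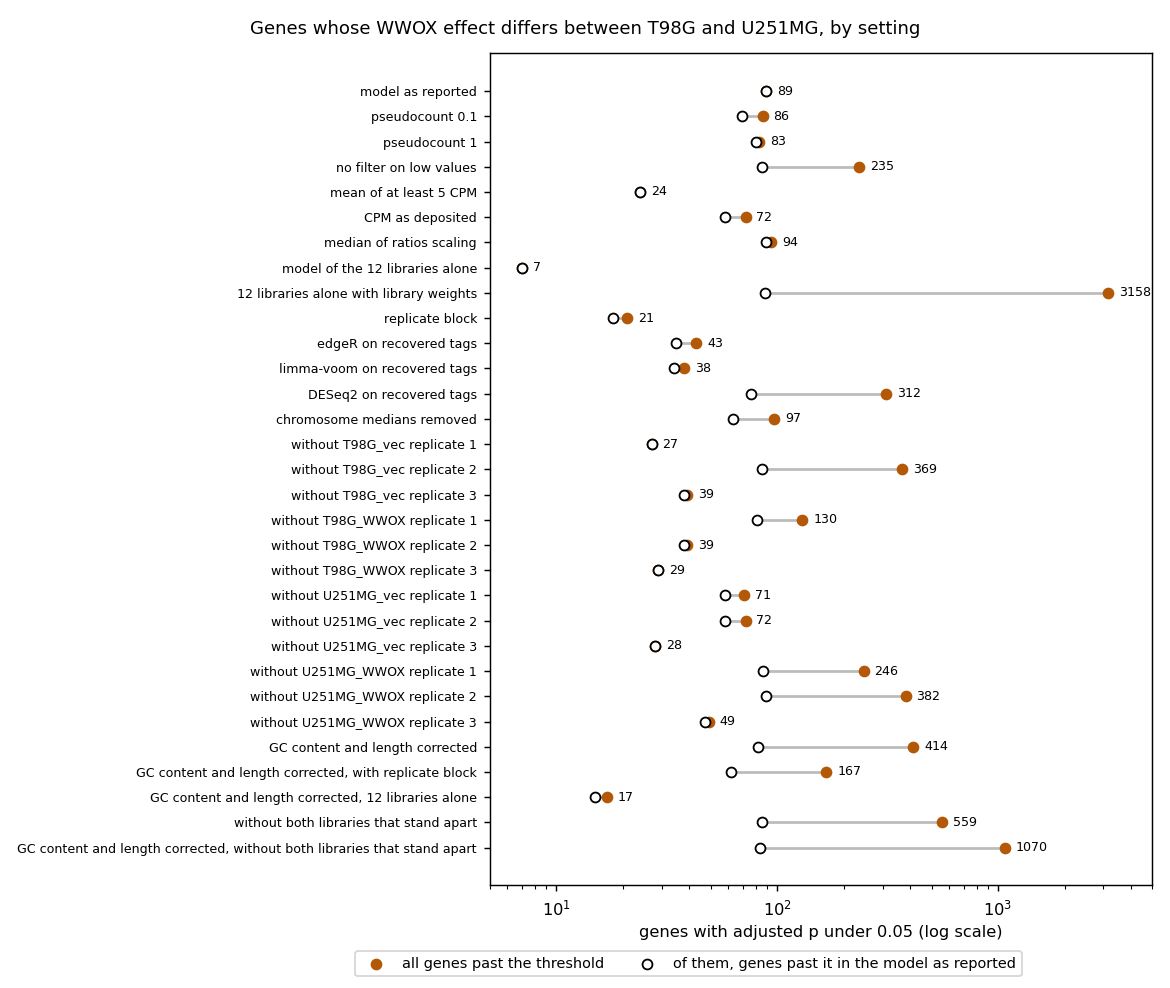
The number of genes past the threshold (x axis, log scale) is plotted for the model as reported and each alternative (rows), with filled points for all genes and open points for those also among the 89. Counts run from 7 with the 12 libraries alone to 3158 with estimated library weights, and 88 of the 89 genes are among the latter.

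The largest opposite responses with T98G up and U251MG down included a transcription factor, matrix and chromatin genes, and components of protein synthesis. SOX11, a neural developmental transcription factor on chromosome 2 (5692384 to 5701385), was at 32.3, 22.1, and 26.5 scaled CPM in T98G “Vec” and 66.8, 33.7, and 46.1 in “WWOX”. In U251MG it was at 7.89, 12.8, and 15.9 in “Vec”, and no tag was found in any “WWOX” library. Hence, SOX11 was 1.75-fold higher in T98G and at least 60.2-fold lower in U251MG, the bound taken at 3 tags per library. The rise in T98G did not pass the threshold within that line (limma adjusted p = 0.308), so the difference came mostly from U251MG. The difference of the fitted log2FC was 5.42 ± 0.45 (limma adjusted p = 2.38e-07), and it passed the threshold with the 12 libraries alone (limma adjusted p = 0.00024) and without each of the 12 libraries. EFEMP1, an extracellular matrix glycoprotein of the fibulin family (chromosome 2, 55865967 to 55924139), was at 15.8, 84.0, and 16.4 scaled CPM in T98G “Vec” and 171, 151, and 204 in “WWOX”, but at 477, 444, and 280 in U251MG “Vec” and 141, 185, and 269 in “WWOX”. The T98G “Vec” library that stood apart was also the one closest to the “WWOX” level. The difference for EFEMP1 was 3.63 ± 0.63 (limma adjusted p = 0.00699, log2FC 2.61 in T98G and -1.02 in U251MG). Its fall in U251MG did not pass the threshold within that line (limma adjusted p = 0.372). CECR2, a bromodomain protein of chromatin remodelling complexes (chromosome 22, 17359949 to 17558151), was at 2.31, 6.67, and 3.10 scaled CPM in T98G “Vec” and 9.04, 13.1, and 10.2 in “WWOX”. In U251MG it fell from 2.05, 1.29, and 2.40 to 0.113, 0.367, and 0.270. Its log2FC were 1.42 ± 0.29 and -1.67 ± 0.29, each past the threshold within its line (limma adjusted p = 0.0182 and 0.0104). The difference was 3.09 ± 0.41 (limma adjusted p = 0.000291). With the 12 libraries alone, the difference did not pass for EFEMP1 or CECR2 (limma adjusted p = 0.17 and 0.056).

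The other genes named for this pattern without overlap in either line had differences between 1.74 and 2.73. SRPRB, the beta subunit of the receptor for the signal recognition particle on the endoplasmic reticulum, was at 1.95, 4.45, and 3.19 scaled CPM in T98G “Vec” and 10.2, 9.56, and 13.4 in “WWOX”, and at 5.05, 3.94, and 4.49 in U251MG “Vec” and 3.17, 2.85, and 0.649 in “WWOX”. PDIA5, a disulfide isomerase of the same compartment, had log2FC of 1.16 and -0.58. EEF1A1, the translation elongation factor that brings aminoacyl-tRNA to the ribosome, went from 535, 1163, and 650 to 1552, 1436, and 2492 scaled CPM in T98G and from 1044, 1068, and 1123 to 554, 549, and 314 in U251MG. EEF1A1 has many processed copies in the genome, so its level is uncertain where tags were shared between them. ALDH7A1, an aldehyde dehydrogenase of lysine breakdown, went from 10.3, 16.6, and 11.7 to 26.2, 21.8, and 35.5 in T98G and from 69.2, 81.2, and 86.1 to 39.6, 35.9, and 39.4 in U251MG (difference 2.11 ± 0.33, limma adjusted p = 0.00243). IL18, a cytokine of the interleukin 1 family, was low in T98G (1.17 to 2.60 scaled CPM in “Vec”, 2.88 to 4.70 in “WWOX”) and much higher in U251MG (163 to 283 in “Vec”, 54.8 to 139 in “WWOX”). DNAJC30, a mitochondrial J-domain protein, and FAM204A had differences of 2.12 and 2.03. The exact permutation p was 0.005 for each of the 20 genes named for opposite responses, the smallest that 400 arrangements can give, because the groups of these genes did not overlap in either line. The genes were chosen for that lack of overlap, so this p was fixed by the choice and adds no evidence. Of these 20 genes, 8 changed past the threshold within T98G and 2 within U251MG. On CPM as deposited, without the scaling factors, 13 of these 20 genes had no overlap in both lines. SOX11, EFEMP1, FAM204A, LTBP1, MAN1A1, MSL1, and STEAP1B-AS1 overlapped in 1 line or both.

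Other large differences in this direction came from 1 line alone, since the gene was barely detected or little different in the other. ITIH5, which encodes an inter-alpha-trypsin inhibitor heavy chain, was at 12.7, 12.8, and 17.3 scaled CPM in U251MG “Vec” and at 0, 0, and 0.0541 in “WWOX”, at least 70.6-fold lower, whereas it did not pass 0.365 in T98G. RNASE1, a secreted ribonuclease, was at 17, 10.8, and 10.1 in U251MG “Vec” and at 0, 0.827, and 0.433 in “WWOX”, and did not pass 0.434 in T98G. BASP1, a membrane-associated growth cone protein, fell in U251MG from 3.94, 6.16, and 3.54 to 0.113, 0.735, and 0.379 (log2FC -2.50, limma adjusted p = 2.04e-05), and was between 115 and 176 in all T98G libraries. PDGFRL, related to the platelet-derived growth factor receptors, had log2FC of 0.27 and -2.50. CES1, a carboxylesterase that hydrolyzes drugs and lipid esters, showed the reverse situation, with 5.79, 14.6, and 13.6 scaled CPM in T98G “Vec” and 170, 82.5, and 133 in “WWOX”, and no more than 0.0919 in any U251MG library. Its difference of 3.60 ± 0.45 (limma adjusted p = 0.00024) therefore describes T98G, and with edgeR on the recovered tags, where both U251MG groups hold next to no tags, it did not pass (adjusted p = 0.258). The pseudogene CES1P1, also among the 89, can share tags with CES1.

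In the opposite direction, down in T98G and up in U251MG, the named genes included a matrix protein, a prostaglandin receptor, and a glycan-trimming enzyme. LTBP1, which stores latent transforming growth factor beta in the matrix (chromosome 2, 32946953 to 33399509), was at 6.29, 3.04, and 4.10 scaled CPM in T98G “Vec” and 1.23, 0.637, and 1.02 in “WWOX”. In U251MG it was at 6.62, 4.58, and 6.58 in “Vec” and 30.2, 7.63, and 10.4 in “WWOX”, the first library far above the rest. The difference was -2.87 ± 0.55 (limma adjusted p = 0.014). PTGER4, the EP4 receptor for prostaglandin E, went from 5.21, 15.5, and 5.65 to 2.77, 3.35, and 2.66 scaled CPM in T98G and from 7.73, 6.52, and 6.39 to 14.8, 13.9, and 17.1 in U251MG (difference -2.37 ± 0.43, limma adjusted p = 0.0109). MSL1, a scaffold of the complex that acetylates histone H4 (chromosome 17, 40121971 to 40136917), went from 26.3, 24.6, and 21.6 to 12.5, 9, and 9.81 in T98G and from 17.7, 20.4, and 14.1 to 23.7, 22.8, and 30.8 in U251MG. Its difference of -1.74 ± 0.28 had one of the smallest errors among the named genes (limma adjusted p = 0.0036). MAN1A1, a Golgi mannosidase, went from 2.31, 2.98, and 2.19 to 1.64, 0.956, and 0.818 in T98G and from 7.02, 10.3, and 5.95 to 18.7, 12.3, and 28.6 in U251MG. RGCC, a regulator of the cell cycle, had log2FC of -1.15 and 0.98. FAM89A, SNHG6 (a small nucleolar RNA host gene), STEAP1B-AS1, and the unnamed gene ENSG00000286190 on chromosome 17 had differences of -2.04, -1.78, -1.68, and -1.67. RPS18P9 (difference -2.12) is a copy of a ribosomal protein gene, and tags of the parent gene cannot be told apart from its own.

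The largest differences of all in this direction were dominated by a fall in T98G. IER3, an immediate-early gene that protects cells from apoptosis (chromosome 6, 30743199 to 30744548), was at 91.4, 45.7, and 98.7 scaled CPM in T98G “Vec” and 1.85, 1.27, and 0.409 in “WWOX”, 48.1-fold lower by the fit. In U251MG it was at 1.58, 1.00, and 1.65 in “Vec” and 0.113, 6.06, and 4.70 in “WWOX”, where the groups overlapped. The difference was -6.14 ± 0.80 (limma adjusted p = 0.000248, exact permutation p = 0.035). SOD3, the extracellular superoxide dismutase, was at 14.3, 9.89, and 4.01 in T98G “Vec” and at 0, 0.0796, and 0 in “WWOX”, at least 37.6-fold lower, and at 5.76 to 8.44 and 4.92 to 21.4 in the U251MG groups. TBX2, a T-box repressor on chromosome 17 (61399843 to 61409466), was at 24.5, 26.9, and 52.1 in T98G “Vec” and 7.81, 9.32, and 4.22 in “WWOX”, and at 13.2, 21.1, and 11.9 in U251MG “Vec” and 15.3, 44.5, and 44.1 in “WWOX” (difference -3.22 ± 0.59, limma adjusted p = 0.0109). H2BC12, a histone H2B gene, was lower in both lines, from 114, 220, and 155 to 5.75, 3.11, and 1.36 in T98G and from 472, 612, and 725 to 99.0, 376, and 370 in U251MG, and histone genes with near-identical copies are uncertain in such counts. HLA-DPB1, a chain of a major histocompatibility complex class II molecule, was at 7.74, 5.27, and 11.8 in T98G “Vec” and at 0.308, 0.557, and 0 in “WWOX”, and had no tag in any U251MG library, so its difference of -3.47 is that of T98G alone. Of the 30 named genes, 13 overlap a gene on the same strand, 17 one on the other strand, and 9 none, and tags in such overlaps can be assigned to either gene.

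**Figure D3:**
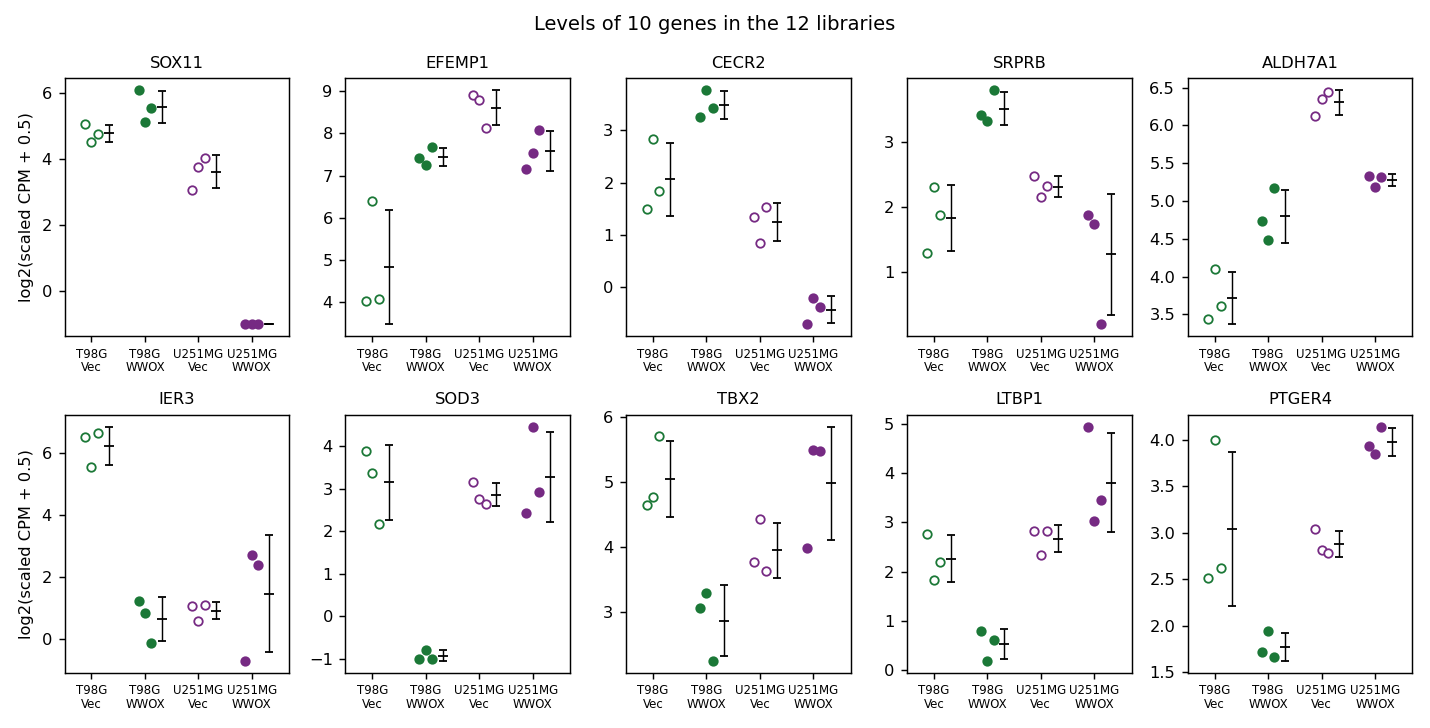
Values of 10 genes are plotted as log2(scaled CPM + 0.5) for each library (circles, open for “Vec” and filled for “WWOX”, green for T98G and purple for U251MG), with the mean and SD of each group beside them (3 libraries each). In the upper row the T98G “WWOX” circles lie above those of “Vec” and the U251MG ones below, and in the lower row the T98G circles fall in “WWOX” while in U251MG the “WWOX” circles of LTBP1 and PTGER4 lie above “Vec” without overlap and those of IER3, SOD3, and TBX2 overlap.

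CAGE tags mark transcription starts, so the sequence just upstream of the RefSeq starts of a few opposite responders is shown to place them. RefSeq (GRCh38.p14) windows of 250 bases upstream of a start were found for 29 of the 37 genes up in T98G and 25 of the 39 down. Capitals mark each match to a searched motif on either strand. CECR2 (chr22:17359699-17359948, plus strand) and SRPRB (chr3:133805565-133805814, plus strand) are genes that were up in T98G and down in U251MG. The CECR2 window holds no match, and that of SRPRB holds 1 to C/EBP-ATF and 1 to AP-1.
CECR2: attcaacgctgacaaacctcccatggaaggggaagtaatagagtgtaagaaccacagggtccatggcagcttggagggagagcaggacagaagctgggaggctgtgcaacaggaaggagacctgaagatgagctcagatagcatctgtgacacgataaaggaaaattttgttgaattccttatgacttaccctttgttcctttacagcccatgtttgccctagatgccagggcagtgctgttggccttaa
SRPRB: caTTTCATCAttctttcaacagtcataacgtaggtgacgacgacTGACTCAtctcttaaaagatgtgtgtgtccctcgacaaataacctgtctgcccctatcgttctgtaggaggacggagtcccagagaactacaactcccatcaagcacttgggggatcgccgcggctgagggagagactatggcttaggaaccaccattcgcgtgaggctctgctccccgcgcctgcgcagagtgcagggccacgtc
LTBP1 (chr2:32946703-32946952, plus strand, the most upstream of its RefSeq starts) and PTGER4 (chr5:40679665-40679914, plus strand) were down in T98G and up in U251MG. The LTBP1 window holds a full cyclic AMP response element between CCAAT matches, and that of PTGER4 holds CCAAT matches and a kappa B match. No motif matched in these windows contains another.
LTBP1: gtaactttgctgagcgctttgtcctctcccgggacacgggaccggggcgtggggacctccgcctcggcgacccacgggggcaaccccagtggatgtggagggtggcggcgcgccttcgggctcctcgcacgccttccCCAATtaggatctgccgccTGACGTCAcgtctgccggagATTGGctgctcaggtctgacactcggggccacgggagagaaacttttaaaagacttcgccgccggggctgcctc
PTGER4: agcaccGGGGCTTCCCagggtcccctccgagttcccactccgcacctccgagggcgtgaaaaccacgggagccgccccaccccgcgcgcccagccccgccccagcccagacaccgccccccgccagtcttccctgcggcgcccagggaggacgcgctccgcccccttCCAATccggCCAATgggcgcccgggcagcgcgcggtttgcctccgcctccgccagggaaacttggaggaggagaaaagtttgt
The counts are per gene, so which start the tags came from is not known here for any of these genes. The SRPRB window lies inside the counted gene, which begins at 133784023, and the LTBP1 gene has other RefSeq starts.

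Most motifs were about as frequent in the windows of the opposite responders as in all 12873 windows of tested genes, with few matches behind each share. The ISRE core (GAAANNGAA), bound by interferon-activated factors, was in 4 of 35 windows of genes down in T98G and up in U251MG (11.4%), in 0 of 38 of the reverse pattern, and in 5.34% of all windows. The E-box (CACGTG) was in 3 of 35 (8.57%), 7 of 38 (18.4%), and 8.39% of all. AP-1 (TGANTCA) was in 8.57%, 5.26%, and 4.47%, kappa B in 8.57%, 5.26%, and 6.08%, and CCAAT in 37.1%, 31.6%, and 33.2%, in the same order. The cyclic AMP response element (TGACGTCA), C/EBP-ATF (TGATGNAA), the sterol regulatory element (TCACNCCAC), TATAAA, and CArG had at most 3 matches in either set. No test was run on these shares.

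Pathways were then followed through lists of genes, with 30 lists described. For each list, the members' median log2FC in either line is given beside their counts. The medians of all tested genes, 0.00 in T98G, 0.01 in U251MG, and -0.02 for the difference, stand for comparison. Over all genes, 13.9% had an unadjusted p of the difference under 0.05, 6.43% upward and 7.5% downward, and 54.6% had log2FC of opposite sign. Few members passed the adjusted threshold, so the lists describe directions that mostly did not pass gene by gene.

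The interferon-stimulated genes, which encode antiviral effectors and sensors, had the largest share of opposite signs among the lists with at least 15 tested members. Of 40 tested members, 32 had log2FC of opposite sign, 28 of them down in T98G and up in U251MG, against 27.8% of all genes with that combination. The medians were -0.41 in T98G and 0.53 in U251MG, with a median difference of -0.89. None of the 40 passed the adjusted threshold, and 6 had an unadjusted p under 0.05. IFI27, a mitochondrial interferon-stimulated protein, was at 15.8, 4.16, and 49.9 scaled CPM in T98G “Vec” and 1.13, 1.27, and 1.02 in “WWOX”, but at 13.2, 1.07, and 1.26 in U251MG “Vec” and 1.02, 186, and 23.5 in “WWOX” (difference -5.74 ± 1.73, limma adjusted p = 0.12). HERC5, a ligase for the ubiquitin-like ISG15, had a difference of -1.23 ± 0.42 and XAF1, a partner of an apoptosis inhibitor, of -1.86 ± 0.68. The U251MG median rested on single libraries, since the 3 “WWOX” libraries had list medians of -1.11, 1.62, and 0.84 relative to “Vec”, whereas those of T98G were -0.53, -0.13, and -0.40. The median difference was -1.59 without U251MG “WWOX” 1 and -0.33 without “WWOX” 2. Without the latter, 21 of 40 members were of opposite sign and the U251MG median turned to -0.08. The genes of antigen presentation by class I molecules, many of them inducible by interferon, had medians of -0.08 and 0.40, and 4 of 17 members had an unadjusted p under 0.05, all downward in the difference (TAPBPL, B2M, and HLA-C had the smallest p). Their difference of -0.70 was -0.51 without U251MG “WWOX” 2, and the U251MG median turned to -0.05.

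The targets of growth and inflammatory signalling had median differences of the same sign. The MAPK feedback and output genes, which damp or report the activity of the ERK pathway, had medians of -0.08 in T98G and 0.65 in U251MG, and the difference was below 0 in 19 of 20 members. The median difference of -0.88 was -1.24 without U251MG “WWOX” 1 and -0.43 without U251MG “Vec” 2, and the U251MG median was 0.32 without “WWOX” 2. ETV1, an ETS transcription factor, was at 4.99, 4.04, and 5.83 scaled CPM in T98G “Vec” and 2.67, 3.66, and 1.91 in “WWOX”, and at 11.1, 3.08, and 4.17 in U251MG “Vec” and 39.8, 9.55, and 13.7 in “WWOX” (difference -2.40 ± 0.59, limma adjusted p = 0.058). The Sprouty genes SPRY1 and SPRY4, inhibitors of receptor tyrosine kinase signalling, had differences of -1.73 ± 0.46 and -2.09 ± 0.59 (limma adjusted p = 0.0735 and 0.0962). The genes of the nuclear factor kappa B response had medians of -0.38 and 0.27, the difference was below 0 in 22 of 26, and IER3 alone passed. Without U251MG “WWOX” 2 the U251MG median turned to -0.08 and the median difference was -0.53, against -0.77 with all libraries. TNFAIP3, a deubiquitinase that limits this pathway, had log2FC of -0.76 and 1.13 (limma adjusted p of the difference = 0.119). Among immediate-early and AP-1 genes, 19 of 24 had a difference below 0 and none an unadjusted p under 0.05 (limma). Without U251MG “WWOX” 2 their median difference was 0.02, against -0.34 with all libraries.

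Hypoxia and secreted signalling genes also had negative median differences. The hypoxia response and glycolysis genes had medians of 0.01 in T98G and 0.57 in U251MG, and the difference stayed between -0.80 and -0.44 when each library was left out. SLC16A3, the lactate exporter MCT4, was at 328, 259, and 379 scaled CPM in T98G “Vec” and 115, 85.5, and 73.8 in “WWOX”, and at 422, 591, and 334 in U251MG “Vec” and 317, 1325, and 508 in “WWOX” (difference -2.27 ± 0.64, limma adjusted p = 0.0948). ANGPTL4, a secreted inhibitor of lipoprotein lipase, had log2FC of -0.81 and 2.36, and SLC2A1, the glucose transporter GLUT1, of -0.59 and 0.64. Enzymes within the list did not all share this direction, with log2FC of 0.40 and -0.83 for LDHA and 0.18 and -0.59 for HK1, neither past the threshold. The transforming growth factor beta and BMP response genes had opposite signs in 16 of 21 members, 14 of them down in T98G and up in U251MG, and medians of -0.33 and 0.37. Their difference of -0.57 was -0.93 without U251MG “WWOX” 1 and -0.45 without T98G “WWOX” 3. Members of opposite sign were 12 of 21 without T98G “Vec” 2, and also 12 of 21 without U251MG “WWOX” 2. LTBP1 passed the threshold in this list, and ID2, an inhibitor of DNA binding by basic helix-loop-helix factors, had log2FC of -0.82 and 0.93. The Wnt genes (16 of 23 of opposite sign), the integrin and laminin chain genes (12 of 22), and the matrix metalloprotease and plasminogen activation genes (8 of 16) had median differences of -0.28, -0.42, and -0.53, and no member passed. Their shares of opposite sign were 69.6%, 54.5%, and 50%, against 54.6% of all tested genes. When each library was left out the median differences ran from -0.43 to -0.23, from -0.58 to -0.27, and from -0.64 to -0.27. LAMB3, the beta 3 chain of laminin 332, had log2FC of -2.09 and 0.23 (limma adjusted p of the difference = 0.0704), with a T98G “Vec” library at 4.97 scaled CPM close to the “WWOX” level and the others at 36.6 and 29.2. The lysosomal genes had medians of 0.07 and 0.50 and a difference of -0.44. It was -0.75 without T98G “Vec” 2 and -0.30 without U251MG “WWOX” 2. MANBA, a mannosidase, had log2FC of -0.57 and 1.13. The metallothionein and zinc export genes had medians of -1.02 in T98G and -0.01 in U251MG, and none passed in the difference (smallest limma adjusted p = 0.186), with MT1E at 102, 81.1, and 82.8 scaled CPM in T98G “Vec” and 30.1, 42.9, and 16.4 in “WWOX”. Only 6 of their 14 genes were tested.

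Lists with the reverse direction, higher in the T98G effect, were led by proliferation genes, and there a single library weighed most. The mitotic genes had medians of -0.32 in T98G and -1.22 in U251MG, with a difference above 0 in 30 of 31 members and opposite signs in 6. None passed the threshold, and none had an unadjusted p under 0.05 (limma). MKI67, a proliferation marker, had log2FC of -0.12 and -2.27. The “WWOX” libraries of U251MG had list medians of -3.15, -0.997, and 0.21 and those of T98G of -1.45, 0.68, and -0.01. These values cross between the lines. The median difference was -0.06 without U251MG “WWOX” 1 and 1.79 without “WWOX” 3. The replication-dependent histone genes, of which H2BC12 passed in the other direction, had medians of -0.39 and -1.42, and their difference of 0.90 was 0.06 without U251MG “WWOX” 1. The DNA replication and S-phase genes had a difference of 0.41, which turned to -0.20 without the same library.

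The genes of the respiratory chain, of contraction, and of sterol synthesis also had median differences above 0. Of 52 respiratory chain genes tested, 3 passed the threshold, all higher in T98G, against 0.394% of all genes in that direction. These calls were lost on CPM as deposited and with the chromosome medians removed. They were also lost with the 12 libraries alone, both without and with the correction for GC content and length. In the model as reported 9 members had an unadjusted p under 0.05 (limma), and 5 passed with DESeq2. ATP5F1A, the alpha subunit of the ATP synthase, was at 148, 164, and 143 scaled CPM in T98G “Vec” and 155, 205, and 212 in “WWOX”, and at 146, 192, and 174 in U251MG “Vec” and 67.4, 91.0, and 96.2 in “WWOX” (difference 1.33 ± 0.29, limma adjusted p = 0.0351). NDUFV2, a core subunit of complex I, went from 24.8, 31.2, and 24.8 to 35.3, 41.3, and 32.1 in T98G and from 16.8, 19.8, and 19.4 to 7.40, 10.8, and 12.3 in U251MG, without overlap in either line. UQCRC2, a core protein of complex III, had log2FC of 0.45 and -0.95 (limma adjusted p of the difference = 0.0415). ATP5F1A and NDUFV2 lie on chromosome 18, where all 4 called genes, of 154 tested, were higher in T98G. The median difference of the whole list was 0.26, and it was -0.04 without U251MG “WWOX” 1. The contractile actin genes had medians of 0.18 and -0.37, and their difference stayed between 0.30 and 0.62 when each library was left out. TPM4, a tropomyosin, had log2FC of 0.96 and -0.66 (limma adjusted p of the difference = 0.0593), and CALD1, the actin-binding caldesmon, of 0.69 and -1.21. The myosin light chain genes MYL12A and MYL12B, neighbours on chromosome 18 with near-identical coding parts, were among the 89 with log2FC of 0.59 and -0.99 and of 0.68 and -0.63. The cholesterol and fatty acid synthesis genes had medians of 0.01 and -0.44, and their difference of 0.46 was 0.10 without T98G “WWOX” 3 and 0.67 without “WWOX” 2. Among them was SREBF2, the sterol-sensing transcription factor, at 0.94 and -0.57 and without overlap in either line (limma adjusted p of the difference = 0.149).

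The remaining lists held few genes that passed. The NRF2 target and xenobiotic handling genes had medians of 0.56 in T98G and 0.44 in U251MG, and CES1 and ABCC2 passed in the difference. ABCC2, an export pump for conjugated drugs and bile compounds, rose in T98G from 1.30, 0.936, and 1.64 to 11, 8.04, and 15.5 scaled CPM and did not pass 0.473 in U251MG (difference 2.60 ± 0.48, limma adjusted p = 0.0109). GSTP1, a glutathione transferase, had log2FC of 0.87 and -1.04. Of the YAP and TAZ target genes, 19 of 27 were of opposite sign in either direction and FOXF2 passed, falling in T98G from 37.8, 27.9, and 48.5 to 16.1, 9.32, and 7.70 and staying between 3.12 and 5.37 in U251MG. The WWOX partner genes (-0.06), the collagen genes (0.01), the cytosolic heat shock genes (-0.08), the mesenchymal marker genes (-0.20), the integrated stress response genes (0.11), the endoplasmic reticulum chaperone genes (0.25), the cytosolic ribosomal protein genes (-0.11), the clustered protocadherin genes (0.71, 5 tested), and the glial and neural marker genes (0.51) had these median differences, and no member of these lists passed. The difference was above 0 in 18 of 21 endoplasmic reticulum chaperone genes and in all 5 protocadherin genes tested, and 50 of 72 ribosomal protein genes were of opposite sign, 26 of them down in T98G. For the chaperone genes the median difference was 1.25 without U251MG “Vec” 2 and -0.23 without “WWOX” 3. Of the markers of other cell types, 5 of 24 were tested, none passed, and the endothelial gene CDH5 was at 0 to 0.0796 scaled CPM in T98G and at 1.90 to 3.71 in U251MG “Vec” and 5.70 to 10.8 in “WWOX”. The part of these marker levels in the results was not tested.

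**Figure D4:**
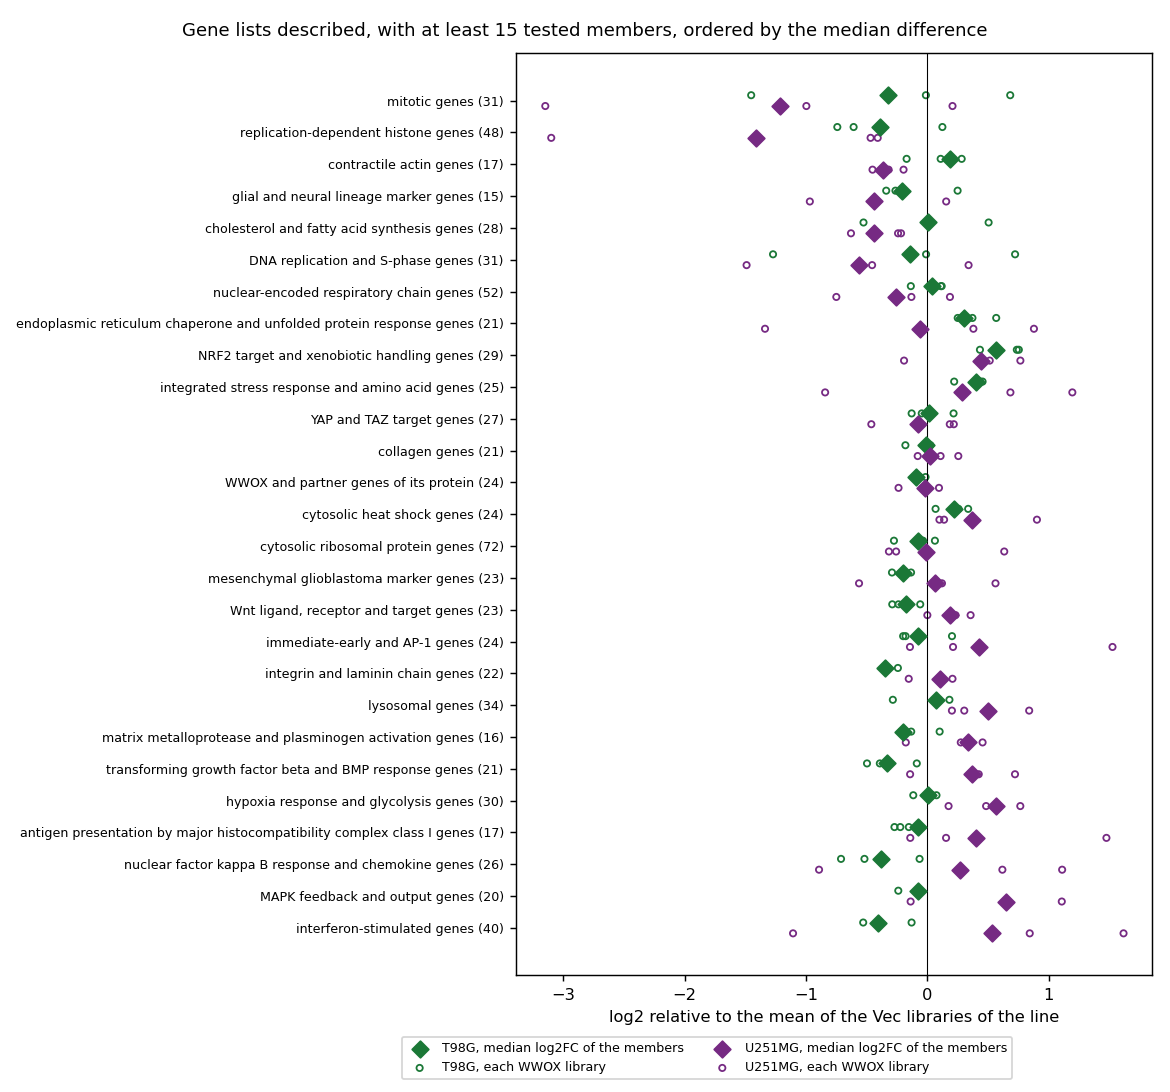
Median log2FC of the members of each described list with at least 15 tested members (number in brackets) are plotted as diamonds for T98G (green) and U251MG (purple), with circles for the list median of each “WWOX” library relative to the mean of the “Vec” libraries. Lists at the bottom (interferon-stimulated, MAPK feedback) have U251MG to the right of T98G and those at the top (mitotic, histone) to the left, and the circles of U251MG spread from -3.15 to 0.21 for the mitotic genes and from -1.11 to 1.62 for the interferon-stimulated genes.

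Differences were not evenly spread over the chromosomes. On chromosome 17 the 687 tested genes had a median log2FC of -0.33 in T98G and -0.03 in U251MG, and 69.9% of them had a difference below the median of all genes. Of the 89 genes, 8 lie on chromosome 17, all lower in T98G, among them TBX2, MSL1, and ENSG00000286190 (9% of the 89, against 6.29% of tested genes). Relative to the mean of “Vec”, the T98G “WWOX” libraries had chromosome 17 medians of -0.24, -0.38, and -0.39 and the “Vec” libraries of 0.03, -0.20, and 0.17. Those of the U251MG “WWOX” libraries were -0.19, 0.25, and -0.08. Relative to all genes, the median difference was -0.32, -0.28 with the correction for GC content and length, and between -0.42 and -0.20 when each library was left out. Chromosome 15 had a higher median in U251MG (0.26 against 0.05 in T98G), and chromosome 22 a higher one in T98G (0.16 against -0.07). Without T98G “Vec” 2, the chromosome 22 median relative to all genes was 0.02 in T98G, and the difference was 0.09, against 0.23 with all libraries. Among 598 tested genes, chromosome 6 carried 7 lower and 2 higher in T98G, against 0.421% and 0.394% of all tested genes. IER3, H2BC12, and HLA-DPB1 were among the lower ones, and the median difference was -0.20. Chromosome 18 had 154 tested genes and a median difference of 0.18 relative to all genes. Without U251MG “WWOX” 2 it was 0.02, and the U251MG median relative to all genes turned from -0.12 to 0.09. All 4 genes called on this chromosome were higher in T98G, namely ATP5F1A, NDUFV2, MYL12A, and MYL12B. The chromosome and the gene lists above therefore share these calls. When the median of each chromosome was removed from every library, 97 genes differed, 63 of them among the 89.

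**Figure D5:**
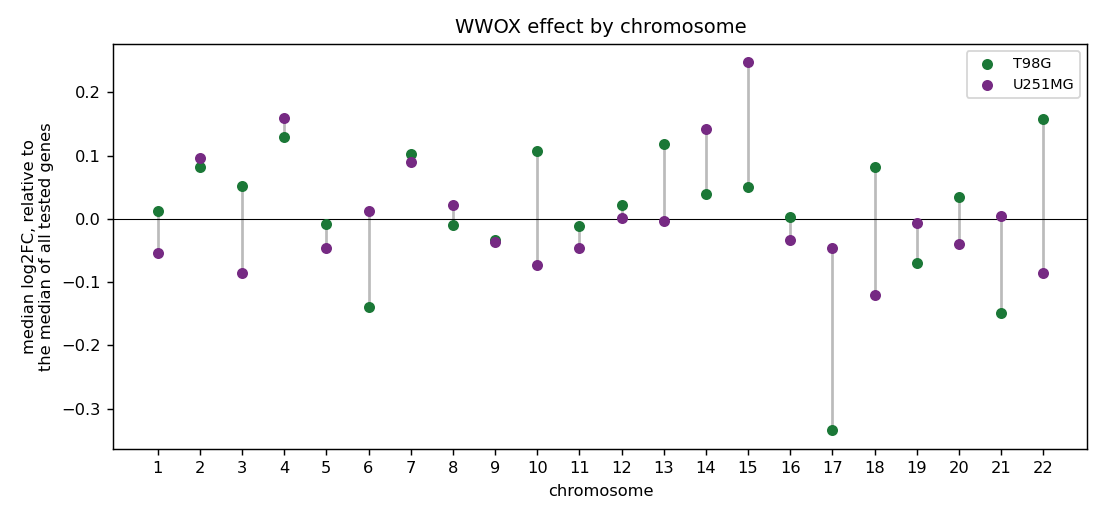
The median log2FC of “WWOX” versus “Vec” of the tested genes of each chromosome (x axis), relative to the median of all tested genes (y axis), is plotted for T98G (green) and U251MG (purple). Chromosome 17 stands lowest in T98G (-0.33) and near 0 in U251MG (-0.05), and chromosome 15 highest in U251MG (0.25).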

How the data were processed

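CAGE-Seq libraries of T98G and U251MG (4 groups of 3) were used, with the other 12 of the 24 libraries in the fit. The authors aligned reads to hg38 with STAR, processed them with SAMtools, counted tags per gene, and deposited CPM, scaled so that every library sums to 1000000. The submitters' processing notes also name limma 3.42. All deposited values were whole tags over the library total within 0.01 of a tag (100% of values), so tags were recovered. There were 0 columns of other samples. The libraries held 10756072 to 15960454 tags.

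CPM were divided by scaling factors (unweighted TMM, which trims 30% by M and 5% by A), and log2(value + 0.5) was taken, so fold changes of low genes are understated. Autosomal genes reaching 5 CPM in 1 or more of the 12 libraries were tested (10918; 385 more at this level lie on no autosome). Positions are from GENCODE 44, and 43033 of 43037 genes matched a symbol. A limma model (trend) with 8 groups, 24 libraries, and 16 residual degrees of freedom gave both effects and their difference, with two-sided p, Benjamini-Hochberg adjustment, and 0.05 as threshold. The median SE was 0.453 for a difference and 0.320 for a line. Exact permutation tests exchanged labels within lines. Lists were described by counts and medians, with no test, and 1 list and 1 gene are not reported here.

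The genes named were WWOX, in each direction the 10 largest differences past the threshold with opposite signs and no overlap in either line, the 5 largest others, and in each list the 3 smallest p and all members past the threshold, of which a part is printed. LDHA, HK1, MKI67, MYL12A, MYL12B, and CES1P1 were named after their values were seen. Members and lists were chosen with earlier results of these data known.

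There were 13 alternatives (pseudocounts 0.1 and 1, median of ratios scaling, no filter, deposited CPM unscaled, a filter on mean CPM of 5, 12 libraries alone, the same with library weights, replicate block, edgeR, limma-voom, and DESeq2 on recovered tags, and chromosome medians removed), and 12 libraries were left out in turn. After seeing the data, 5 were added. A spline correction (5 degrees of freedom each) for transcript length and GC content was used in 4 forms. T98G “Vec” 2 and U251MG “WWOX” 2 were left out together, with and without this correction. U251MG “WWOX” 1, which also stood apart, was kept in these. The scripts were tested on simulated data. Python 3.11.15 (matplotlib 3.10.9, scipy 1.17.1, pandas 2.3.3, numpy 2.4.6) and R 4.3.3 (DESeq2 1.42.0, limma 3.58.1, edgeR 4.0.16) were used.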

Additional observations from a re-analysis of the deposited data

Results flagged for a closer look

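Results are given here where the WWOX effect in T98G and in U251MG differed by the test of the difference itself (limma, adjusted p under 0.05), with the difference of log2FC in brackets. Higher in T98G were SOX11 (5.42), EFEMP1 (3.63), CECR2 (3.09), SRPRB (2.73), EEF1A1 (2.50), DNAJC30 (2.12), ALDH7A1 (2.11), IL18 (2.10), FAM204A (2.03), PDIA5 (1.74), ITIH5 (4.50), RNASE1 (3.64), CES1 (3.60), PDGFRL (2.77), BASP1 (2.74), ABCC2 (2.60), ATP5F1A (1.33), NDUFV2 (1.29), UQCRC2 (1.40). Lower in T98G were LTBP1 (-2.87), PTGER4 (-2.37), MAN1A1 (-2.15), RGCC (-2.13), RPS18P9 (-2.12), FAM89A (-2.04), SNHG6 (-1.78), MSL1 (-1.74), STEAP1B-AS1 (-1.68), ENSG00000286190 (-1.67), IER3 (-6.14), SOD3 (-4.49), H2BC12 (-4.20), HLA-DPB1 (-3.47), TBX2 (-3.22), FOXF2 (-1.61). Of the 30 genes named first, 7 also passed with the 12 libraries modelled alone (SOX11, ITIH5, RNASE1, CES1, BASP1, SOD3, and HLA-DPB1), 16 with edgeR, and 29 with the correction for GC content and length. Each of these 7 genes changed past the threshold in 1 line and not in the other, and 4 of them did not pass with edgeR (adjusted p = 0.0849 for ITIH5, 0.582 for RNASE1, 0.258 for CES1, and 1.00 for HLA-DPB1). Groups of 3 libraries were not tested for outlying values.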

How the results depend on the processing

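The limits were the spread between libraries and the few replicates. The 35 named genes past the threshold kept the sign of their difference in every alternative in which they could be tested. They were called on the same libraries, which favours kept signs. Their call was kept by 7 with the 12 libraries alone, 18 with edgeR, 18 with limma-voom, 14 with the replicate block, and 35 with median of ratios scaling. Signs turned for 3 named list members that did not pass as reported (PSPH 0.12 with library weights, CDH5 0.57 with edgeR, KRT8 -0.032 without U251MG “WWOX” 3). The cause of these changes was not tested. The median difference of all genes, -0.02 as reported, was -0.12 with both edgeR and DESeq2.

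In the order genes with a difference, higher in T98G, lower in T98G, opposite responses, opposite without overlap, changed in T98G, and changed in U251MG, the counts as reported were 89, 43, 46, 76, 29, 89, and 22. They were 235, 90, 145, 170, 58, 276, and 121 with no filter (more genes tested), 24, 10, 14, 21, 12, 33, and 6 with a mean of at least 5 CPM (fewer genes tested), 7, 5, 2, 4, 1, 20, and 4 with the 12 libraries alone, and 3158, 1559, 1599, 2872, 122, 4251, and 878 with estimated library weights, which ran from 0.158 to 7.71 and rest on few degrees of freedom. They were 43, 17, 26, 37, 17, 63, and 10 with edgeR, 38, 20, 18, 31, 16, 58, and 14 with limma-voom, and 312, 130, 182, 296, 79, 187, and 151 with DESeq2. On CPM as deposited, 27 were higher and 45 lower, against 43 and 46. A pseudocount of 0.1 gave 11 genes in U251MG. With the correction for GC content and length, chosen after seeing the data like every setting with this correction or without both libraries, they were 414, 2.5e+02 (rounded), 163, 398, 157, 233, and 120, and with the 12 libraries alone 17, 10, 7, 12, 8, 26, and 6. Without T98G “Vec” 2 and U251MG “WWOX” 2 they were 559, 259, 300, 518, 316, 746, and 846, and with the correction as well 1070, 602, 468, 1016, 614, 787, and 893.

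When 1 library was left out the ranges were 27 to 382, 12 to 188, 15 to 194, 16 to 355, 7 to 173, 33 to 274, and 8 to 554. Genes with a difference were most without U251MG “WWOX” 2 (382), T98G “Vec” 2 (369), and U251MG “WWOX” 1 (246), and fewest without T98G “Vec” 1 (27), U251MG “Vec” 3 (28), T98G “WWOX” 3 (29), T98G “Vec” 3 and “WWOX” 2 (39 each), and U251MG “WWOX” 3 (49). The difference for WWOX stayed under the threshold, between 0.13 and 0.68.

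Whether the replicate numbers pair the samples is not given by the labels. Deviations of same-numbered libraries correlated at 0.45, 0.52, and -0.39 in T98G and 0.08, -0.32, and -0.41 in U251MG. These mixed values do not settle it, and the model as reported ignores any pairing. With the replicate block, 18 of the 89 genes kept their call. With the replicate block the counts were 21, 8, 13, 16, 5, 48, and 14, and with the block and the correction for GC content and length 167, 102, 65, 155, 74, 100, and 40.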
